A study of Mus musculus with 27 samples.

Results

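Classical monocytes were taken from the single-cell matrices of CD45-positive immune cells of mouse MC38 tumours (MC38 is a colon carcinoma cell line grown in mice). A barcode counted as a member when it held at least 1 UMI of Csf1r, at least 3 UMIs of Ly6c2, at most 1 UMI of the CD3 genes and at most 1 of Ncr1 and Klrb1c. It also had to lie below 20 UMIs of C1qa, C1qb and C1qc, below 50 of H2-Aa, H2-Ab1 and H2-Eb1 and below 10 of Ifit1, Ifit2, Ifit3 and Rsad2, each per 10,000 UMIs of the cell, with at most 1 UMI of Arg1, no UMI of Mgl2 and at most 1 UMI of Ace, Treml4 and Adgre4. The members were thus chosen by the measured UMIs of these genes. The rule found 422 cells among 20299 kept barcodes, 223 in the WT matrix and 199 in the KO matrix.

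Classical monocytes are bone marrow-derived blood cells that enter inflamed or tumour tissue through the chemokine receptor CCR2 and can turn into macrophages there. In mice they carry the surface protein Ly6C, encoded by Ly6c2. Interferon gamma, made by T cells and NK cells, acts on them through its receptor and induces GTPases of the GBP and IRG families, the MHC genes and the feedback inhibitor SOCS1.

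The mice called WT carried a floxed Ogt gene, and the mice called KO carried the floxed Ogt and Lyz2-cre, so the groups share the floxed allele and differ by the Cre. Ogt encodes O-GlcNAc transferase, which adds O-GlcNAc sugars to proteins inside the cell, and Lyz2-cre expresses Cre from the lysozyme locus, in monocytes, macrophages and neutrophils. Age, sex and the animals behind each library are not named in the labels, and nothing in them says that the libraries of a group came from separate animals. The series has 27 samples, of which the labels list 2 single-cell samples per genotype, while 1 matrix per genotype was analysed here. Whether a matrix holds 1 of these samples or pools both is not known, so each counts as 1 sample. The sample titles name CD45, whereas another label field gives CD45 for 1 single-cell sample and CD46, CD47 and CD48 for the others, and the titles were followed. Differences between the matrices therefore have no replicate and no test, and the intervals below (95%, exact) cover counting error only. The replicated RNA data are 3 WT and 3 KO bulk libraries of tumour-associated macrophages, in which fewer cells of a type and less RNA per cell cannot be told apart.

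The members held a median of 7044 UMIs in WT and 7342 in KO, with 2362 and 2373 genes, and their summed UMIs came to 1607659 and 1492650. The matrices shared 25 kept barcodes, and 2 KO members had a barcode that was also kept in WT. Scrublet marked 5 WT and 2 KO members as doublets. Among the 12 lists of markers of other cell types, Ly6g and Camp were at 0 in the WT members and Mmp9 in the KO members for neutrophils, and the 10 neutrophil genes summed to 661 CPM in WT and 224 CPM in KO (CPM, a gene's UMIs scaled to a common total of UMIs per class). The 10 NK cell genes were all detected and summed to 109 CPM in WT and 381 CPM in KO. The 12 T cell genes summed to 82.7 and 94.5 CPM, against 1829 and 2215 CPM in free RNA, the barcodes with 10 to 100 UMIs. The largest sums were those of the plasmacytoid dendritic cell genes (734 CPM in WT and 761 CPM in KO, led by Bst2). Macrophage genes summed to 725 and 697 CPM, led by Apoe, and had a UMI in 85.2% and 77.9% of members. Non-classical monocyte genes summed to 725 and 582 CPM, led by Nr4a1. The lists not named here each summed to at most 57.8 CPM. The part that other cells' RNA has in the results was not tested.

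Sequences are shown first for 4 genes that were higher and 2 that were lower in the KO members, because their promoters hold recognisable letters. Each stretch is the 200 bases before an annotated start, read 5′ to 3′ on the gene's strand, from RefSeq (GRCm38.p6, the same assembly as mm10). Capitals mark TTCNNNGAA (the GAS letters, named for gamma-activated sites), GAAA and GAAA with 2 free bases between them (the ISRE letters bound by IRF factors) and GGG and TTTCC with 2 free bases between them (a form of the kB letters bound by NF-kB), searched on both strands. A base can belong to more than 1 match.
Gbp2, chr3:142620463-142620662, + strand: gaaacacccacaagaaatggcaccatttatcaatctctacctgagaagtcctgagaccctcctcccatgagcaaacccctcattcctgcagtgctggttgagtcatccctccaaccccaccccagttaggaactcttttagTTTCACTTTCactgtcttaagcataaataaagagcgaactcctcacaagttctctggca
Gbp5, chr3:142496734-142496933, + strand: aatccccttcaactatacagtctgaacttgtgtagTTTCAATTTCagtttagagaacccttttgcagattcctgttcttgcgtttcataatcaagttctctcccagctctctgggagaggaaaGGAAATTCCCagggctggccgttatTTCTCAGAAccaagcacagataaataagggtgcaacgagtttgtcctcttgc
Irgm1, chr11:48871421-48871620, - strand: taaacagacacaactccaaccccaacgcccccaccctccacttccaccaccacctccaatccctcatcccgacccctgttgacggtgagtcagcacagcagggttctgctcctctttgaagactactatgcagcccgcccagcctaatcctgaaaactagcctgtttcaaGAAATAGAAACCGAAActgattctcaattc
Socs1, chr16:10785537-10785736, - strand: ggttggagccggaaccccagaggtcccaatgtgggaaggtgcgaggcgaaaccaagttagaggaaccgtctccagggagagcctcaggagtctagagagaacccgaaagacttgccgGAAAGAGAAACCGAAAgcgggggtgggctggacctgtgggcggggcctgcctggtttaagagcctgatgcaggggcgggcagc
Cxcl1, chr5:90891045-90891244, + strand: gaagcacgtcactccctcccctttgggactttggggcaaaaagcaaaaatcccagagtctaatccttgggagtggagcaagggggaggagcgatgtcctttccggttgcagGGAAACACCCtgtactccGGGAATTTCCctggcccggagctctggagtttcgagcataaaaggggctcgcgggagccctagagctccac
Cxcl3, chr5:90785901-90786100, + strand: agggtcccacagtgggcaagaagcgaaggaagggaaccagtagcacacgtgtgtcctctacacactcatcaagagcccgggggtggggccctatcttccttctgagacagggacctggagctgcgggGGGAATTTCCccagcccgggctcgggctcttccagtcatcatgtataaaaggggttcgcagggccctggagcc

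The capitals in Gbp2 are 1 ISRE match that begins 59 bases before the start. Gbp5 has an ISRE match at 165, a kB match at 77 and a GAS match at 52 bases before its start. Irgm1 and Socs1 each have 2 overlapping ISRE matches, which begin 30 and 24 bases before the Irgm1 start and 83 and 77 bases before the Socs1 start. Cxcl1 has 2 kB matches, at 89 and 71 bases, and Cxcl3 has 1, at 73 bases. Over all windows of 300 bases (250 before and 50 after a start), 3.44% held the ISRE letters, 8.3% the GAS letters and 1.63% the kB letters. Counted by gene, with any window of a gene, these were 3.99%, 9.55% and 1.89% of all genes with a window. Among the genes tested in the members, as defined below, they were 5.37%, 8.56% and 2.43% of those with a window. Of the 20 genes of the interferon gamma list with a window, 11 held ISRE letters and 8 GAS letters. Of the 15 chemokine genes with a window, 4 held kB letters, Cxcl2 among them, and 1 held ISRE letters. None of the 6 windows overlapped a peak of the deposited macrophage ATAC list or of either EGR2 list, while 2.56% of all windows overlapped an ATAC peak. The kB letters were added after the Cxcl1 and Cxcl3 sequences had been seen, and a match is a description of the letters only.

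The label was checked on genes that the rule did not use. Chil3, a chitinase-like protein of immature monocytes, stood at 946 CPM in the WT members and 819 CPM in the KO members, against 24.0 and 15.9 CPM in the C1q-high class, the cells with at least 20 C1q UMIs per 10,000. Hp (haptoglobin) stood at 487 and 441 CPM in the members and at 15.2 and 8.83 CPM in the C1q-high class. Ccr2 stood at 339 and 289 CPM in the members and at 166 and 144 CPM in the C1q-high class. Plac8, a small cysteine-rich protein, stood at 5537 and 6864 CPM in the members but was as high in non-classical cells, at 6095 and 5966 CPM. These 4 genes were thus all higher in the members than in C1q-high cells in both matrices. None of them was among the 10 genes with the largest ratio over the non-classical class. The last of those 10, Glp2r, had log2 ratios of 1.67 in WT and 1.60 in KO. The check therefore sets the members apart from C1q-high cells and less from the nearer classes. T cells also held Ly6c2, at 469 CPM in WT and 357 CPM in KO, and held Chil3 at 3.80 and 2.93 CPM.

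**Figure D1:**
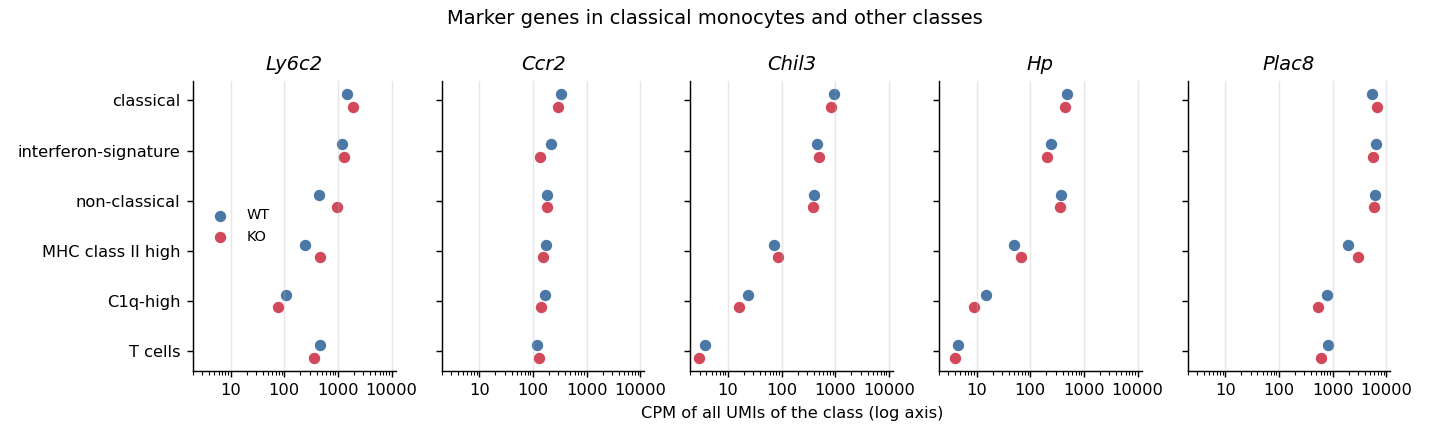
Level of the 5 marker genes (CPM of all UMIs of a class, log axis) in classical monocytes and 5 other classes, with 1 point per matrix (WT blue, KO red) and, for the classical class, the 95% Poisson interval, which is mostly smaller than the point. Chil3 stands at 946 CPM in WT and 819 CPM in KO classical monocytes and at 24.0 and 15.9 CPM in C1q-high cells, while Ly6c2 itself was part of the rule.

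Other genes that set the members apart from C1q-high cells included Vcan, the matrix proteoglycan versican, at 386 and 348 CPM against 28.9 and 22.7 CPM, and Mgst1, a membrane glutathione transferase, which stood at 282 and 447 CPM against 12.2 and 26.2 CPM. Against the non-classical class, the members had more Ccl2 (1340 and 1043 against 274 and 257 CPM) and Ccl7 (90.8 and 90.4 against 14.6 and 19.5 CPM), ligands of CCR2. The matrix protease Mmp19 stood at 226 and 192 CPM in the members and 61.2 and 43.9 CPM in non-classical cells. These genes were picked for their ratio, so the values are a description.

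The markers were then read on both sides of the Ly6c2, MHC class II and Ifit and Rsad2 thresholds. Just inside the Ly6c2 threshold, at 3 or 4 UMIs, 39 WT cells held 776 CPM of Chil3 and 236 CPM of Hp, and 30 KO cells held 581 and 340 CPM. Just outside, at 1 or 2 UMIs, 97 WT cells held 587 CPM of Chil3 and 125 CPM of Hp, and 45 KO cells held 340 and 132 CPM. Just under the MHC class II threshold, at 25 to 50 UMIs per 10,000, 23 WT cells held 435 CPM of Chil3 and 263 CPM of Hp, and 31 KO cells held 509 and 395 CPM. Just over it, at 50 to 100, 23 WT cells held 472 CPM of Chil3 and 147 CPM of Hp, and 46 KO cells held 430 and 211 CPM. Plac8 stood at 5247 CPM in WT and 9842 CPM in KO just under this threshold and at 4515 and 6786 CPM just over it. Chil3 and Hp were lower in the cells just outside the Ly6c2 threshold. So was Ccr2, at 244 CPM in WT and 198 CPM in KO inside and 222 and 117 CPM outside. Hp and Plac8 were lower just over the MHC class II threshold, while Chil3 was higher over it in WT and lower in KO. Ccr2 was higher over it, at 217 and 224 CPM under and 278 and 240 CPM over. On each side of the C1q threshold lay 4 WT cells and 1 KO cell, too few to read. The Ifit and Rsad2 threshold was read as well. Just under it, at 5 to 10, 30 WT cells held 1027 CPM of Chil3, 449 of Hp and 6250 of Plac8. There 28 KO cells held 957, 488 and 7588 CPM. Just over it, at 10 to 20, 22 WT cells held 678, 307 and 8078 CPM, and 24 KO cells 1050, 483 and 8345 CPM. Over this threshold Chil3 and Hp were lower in WT, while in KO Chil3 was higher and Hp was close. Plac8 was higher over it in both matrices. Ccr2 was lower over it, at 287 CPM in WT and 383 CPM in KO under and 126 and 217 CPM over.

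The share of classical monocytes was close in the matrices. Members made up 2.18% of kept cells in WT (1.91% to 2.49%) and 1.97% in KO (1.71% to 2.26%), a KO over WT ratio of 0.904 whose interval of 0.743 to 1.099 includes 1. Among Csf1r-positive cells without T or NK genes, they were 9.41% of 2371 WT cells and 8.64% of 2304 KO cells. The cells next to them in the rule differed more. Of the cells with at least 3 UMIs of Ly6c2 in that population (646 in WT, 694 in KO), 23.2% in WT and 40.9% in KO passed into the MHC class II high class (ratio 1.76, interval 1.44 to 2.16), and 34.5% and 28.7% remained as members (ratio 0.831, interval 0.683 to 1.01). Non-classical cells were 1.58% of kept cells in WT and 0.932% in KO (ratio 0.591, interval 0.453 to 0.767). Without the MHC class II threshold, an alternative chosen after seeing the data, the members were 288 in WT and 316 in KO and the ratio of their shares was 1.11. When the rule was applied to cells thinned to 2000 UMIs, it found 57 WT and 60 KO cells and a ratio of 1.07. The direction of the small difference in share therefore turned under both of these settings.

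Among the members themselves Ly6c2 was higher in KO. It summed to 2419 UMIs (1505 CPM) in WT and 2870 UMIs (1923 CPM) in KO, and the median member held 8 UMIs in WT and 13 in KO, with quartiles of 5 and 14 against 7 and 20. The KO over WT ratio was 1.28 (1.21 to 1.35). Plac8 was 1.24-fold higher in KO (1.205 to 1.28). Chil3 was 1.15-fold lower (1.07 to 1.25), Ccr2 1.17-fold lower (1.03 to 1.33), and the interval for Hp, 0.993 to 1.23 for WT over KO, includes 1. None of these 5 markers passed 1.5-fold, and Ly6c2 was part of the rule, so its values are a description.

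The targeted gene was low in this class. Ogt had 87 UMIs (54.1 CPM) in the WT members and 61 UMIs (40.9 CPM) in the KO members, 1.32-fold lower, with an interval (0.944 to 1.87) that includes 1. After thinning each cell to 2000 UMIs, 11.7% of WT members and 5.53% of KO members had an Ogt UMI (29.1% and 24.1% without thinning), against 26.7% and 25.7% of T cells. In T cells, which do not normally express Lyz2, Ogt stood at 140 CPM in both matrices. The deleted part of Ogt is not named in the labels, and UMIs from outside it do not check the deletion. Lyz2, into which the Cre is inserted, had 15891 UMIs (9885 CPM) in WT and 33 UMIs (22.1 CPM) in KO, 447-fold lower (318 to 650). Lyz1, a nearly identical neighbour of Lyz2, had 1 UMI in WT and 260 UMIs in KO, a ratio of 280 (49.8 to 11103). Lyz1 was found in 1 WT cell and in 23 KO cells (11.6% of KO members), and 3 of these held 53.1% of its KO UMIs. Reads of the pair are assigned only where the genes differ, so the Lyz1 value is uncertain.

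Gene by gene, 4149 genes had at least 100 UMIs over both matrices and at least 20 CPM in 1 of them, and these count as tested below. A gene counts as higher or lower when its ratio passes 1.5-fold on the scale log2(CPM + 5), which understates the change of low genes. In KO 127 genes were higher (3.06%) and 118 lower (2.84%), and the median log2 ratio of all tested genes was -0.01. The folds below are plain ratios of CPM, and log2 ratios are on the scale with 5 CPM added.

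**Figure D2:**
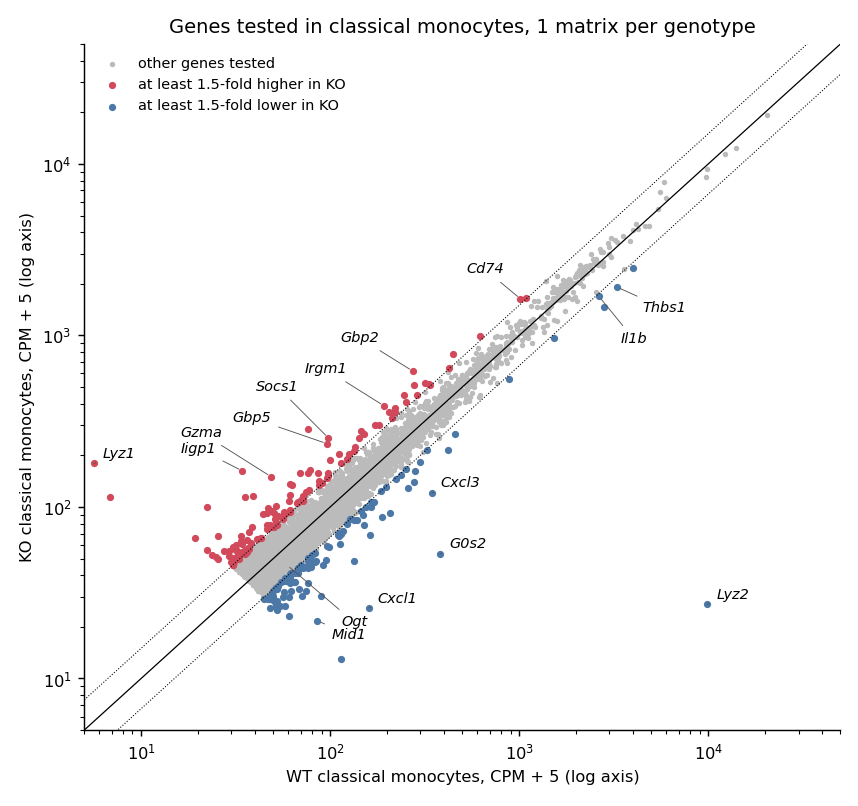
Level of each of the 4149 genes tested in WT (x axis) and KO (y axis) classical monocytes, as CPM + 5 on log axes, with dotted lines at 1.5-fold. Red points are the 127 genes higher in KO, blue points the 118 lower, and Lyz2 lies far below the diagonal at 9885 CPM in WT and 22.1 CPM in KO.

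Interferon gamma response genes and GTPases were the list with the highest median. Of its 27 genes 23 were tested, and 12 were higher in KO and 0 lower, against 3.06% and 2.84% of all genes tested. Of the 23 genes, 22 lay above 0, with a median log2 ratio of 0.67. Iigp1, an immunity-related GTPase that attacks the vacuoles of parasites, had 47 UMIs (29.2 CPM) in WT and 235 UMIs (157 CPM) in KO, 5.39-fold higher (3.92 to 7.53). The guanylate-binding protein Gbp2 had 431 UMIs (268 CPM) in WT and 918 (615 CPM) in KO, 2.29-fold higher (2.04 to 2.58), and Gbp5, which promotes inflammasome assembly, stood at 90.8 and 229 CPM, 2.52-fold higher (2.07 to 3.08). The suppressor of cytokine signalling Socs1 stood at 92.7 CPM in WT and 248 CPM in KO, 2.67-fold higher (2.21 to 3.26). Irgm1, a regulator of the IRG GTPases, stood at 187 and 384 CPM, and Gbp3 at 70.9 and 152 CPM. The transcription factor Irf1 stood at 442 CPM in WT and 777 CPM in KO. Cd274, which encodes PD-L1, stood at 312 and 521 CPM. Cxcl9 was the 1 gene below 0, at 107 and 91.1 CPM. Gbp genes are a family of close copies, and how their shared reads were split is not known from the files.

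Cell by cell, the higher level of this list was spread over most members. The summed UMIs of its tested genes had a median of 27.6 per 10,000 in WT cells (quartiles 18.1 and 44.3) and 56.4 in KO cells (quartiles 37.2 and 87.1). Of the KO members, 87.4% lay above the WT median and 64.3% above the upper WT quartile. Thinned to 2000 UMIs, 23.3% of WT members (17.9% to 29.4%) and 53.3% of KO members (46.1% to 60.4%) held a UMI of Gbp2, against 11.8% and 14.2% of T cells. Without thinning the shares of members were 38.1% and 77.4%. For Iigp1 the thinned shares were 3.14% and 19.1% in members, and 12.9% and 19.2% in T cells, so that KO members reached the share in T cells. The 3 highest KO cells held 20% of the Iigp1 UMIs and 8.39% of the Gbp2 UMIs.

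The list was also above 0 in the other classes, which share the matrices and are not replicates. Its median log2 ratio was 0.75 in non-classical cells, with 11 of 18 genes higher against 4.45% of all genes tested in that class. It was 0.62 in MHC class II high cells (15 of 25 genes, against 3.06% of all), 0.55 in C1q-high cells (11 of 24, against 4.6%) and 0.51 in interferon-signature cells (11 of 23, against 5.82%). In T cells it was 0.23 (2 of 22, against 0.572%), and in free RNA 0.42 (8 of 24, against 2.15%). No list gene passed 1.5-fold downward in any of these, where 3.02% of all genes did so in non-classical cells, 1.59% in MHC class II high cells, 1.98% in C1q-high cells, 3.59% in interferon-signature cells, 0.874% in T cells and 0.869% in free RNA. In free RNA Gbp2 stood at 119.5 CPM in WT and 244 CPM in KO, and the part of free RNA in the members' values was not tested.

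**Figure D3:**
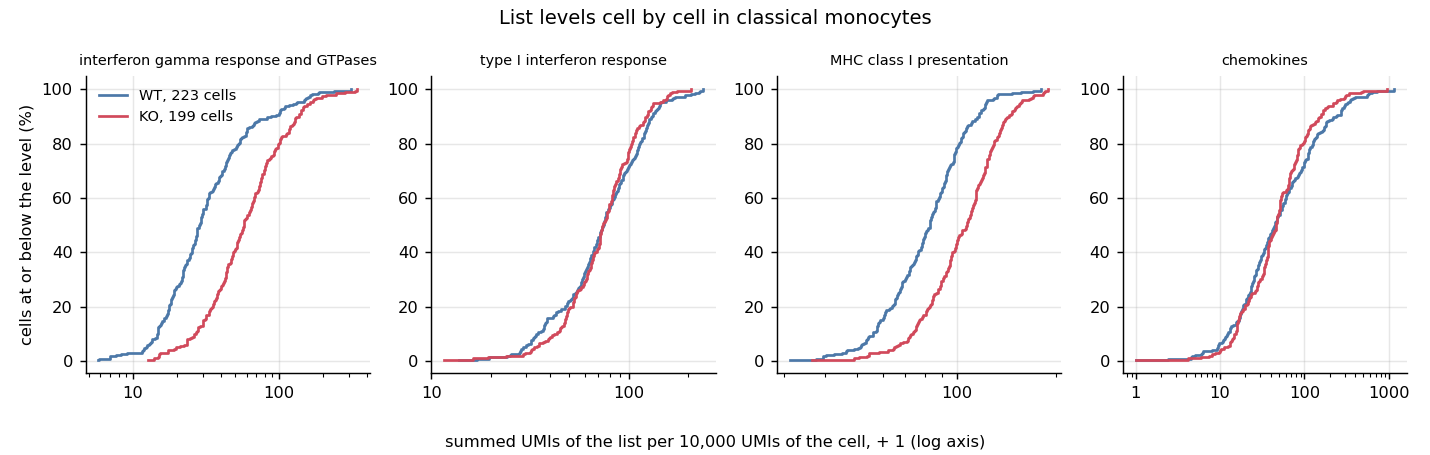
Cumulative share of classical monocytes (y axis, percent of cells) by the summed UMIs of 4 gene lists per 10,000 UMIs of the cell, plus 1 (x axis, log), for 223 WT cells in blue and 199 KO cells in red. The interferon gamma curve of KO lies to the right over most of its length (medians 27.6 and 56.4), MHC class I likewise (82.1 and 106), and the type I interferon (73.4 and 72.9) and chemokine (43.2 and 45.3) curves cross.

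Type I interferon genes were at similar levels in the matrices. Of 27 tested genes of that list none passed 1.5-fold, near the shares of all genes tested (3.06% higher and 2.84% lower). The median log2 ratio was -0.07, with the rule itself limiting Ifit1, Ifit2, Ifit3 and Rsad2. The list's level per cell had a median of 73.4 per 10,000 in WT and 72.9 in KO, and 49.2% of KO members lay above the WT median. The list's median turned to 0.14 when members with any UMI of other cell types were left out (79 WT and 61 KO cells remained).

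Of 20 tested MHC class I presentation genes 3 were higher in KO and 0 lower, against 3.06% and 2.84% of all genes tested. Of these 20 genes, 17 lay above 0, and the median log2 ratio was 0.33. With at least 2 UMIs of Ly6c2 in place of 3, 1 of the 20 genes was higher. H2-K1, a classical class I heavy chain, stood at 1082 CPM in WT and 1651 CPM in KO, and H2-Q7, a non-classical one, at 73.4 and 158 CPM. Beta-2 microglobulin (B2m), the shared light chain, stood at 2400 and 2965 CPM, under 1.5-fold. The list's level per cell had medians of 82.1 and 106 per 10,000, and 79.4% of KO members lay above the WT median. The H2 genes are close copies of each other, so the split between them is uncertain. H2-K1 was more abundant in free RNA, at 3678 CPM in WT and 4708 CPM in KO, than in the members.

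Some MHC class II genes were higher in KO among the members, from which the rule had removed the cells with most of them. Cd74, the invariant chain that guides class II molecules, stood at 1008 CPM in WT and 1632 CPM in KO, H2-Aa at 214 and 374 CPM and H2-Ab1 at 216 and 354 CPM. Of 13 tested genes 4 were higher and 0 lower, against 3.06% and 2.84% of all genes tested, with a median log2 ratio of 0.22. The fourth was Cd40, a receptor for T cell help, at 41.1 and 73.0 CPM. With the rule applied to thinned cells 3 of these genes were tested, with a median of 0.0282 against 0.0392 over all genes. The costimulatory ligand Cd80 stood at 195 and 154 CPM. Because the threshold on H2-Aa, H2-Ab1 and H2-Eb1 shapes these values, the cells without that threshold are given beside them: there 3 of 14 genes were higher and 0 lower (against 2.6% and 2.72% of all genes) and the summed list stood at 10091 CPM in WT and 13279 CPM in KO. In free RNA H2-Aa stood at 1743 and 2258 CPM, above its level in the members, and the part of free RNA in the members' values was not tested. In the MHC class II high class itself the list's median log2 ratio was -0.07.

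Chemokine sums were lower in KO, but the typical cell was not. Of 15 tested chemokines and related genes 5 were lower and 1 higher, against 2.84% and 3.06% of all genes tested. The median log2 ratio was -0.36, and it turned to 0.06 over the 5 genes tested when the rule was applied to thinned cells. Cxcl1, a ligand of the neutrophil receptor CXCR2, had 249 UMIs (155 CPM) in WT and 31 UMIs (20.8 CPM) in KO, 7.46-fold lower (5.12 to 11.2). It was found in 24 WT and 5 KO cells. Cxcl3, another CXCR2 ligand, stood at 340 and 116 CPM (2.93-fold lower, 2.47 to 3.497), in 41 WT and 16 KO cells. Ccl3, a chemokine that attracts monocytes and T cells, stood at 203 and 87.8 CPM, in 38 and 37 cells. Ccl24, an eosinophil attractant, stood at 84.6 and 25.5 CPM, but 3 WT cells held 77.2% of its WT UMIs. Ccrl2, an atypical chemokine receptor, stood at 193 and 125 CPM, and Cxcl2 just missed the threshold at 3589 and 2437 CPM. Cxcl10, which attracts T cells through CXCR3, was the 1 higher gene, at 614 and 981 CPM. The median member held 43.2 chemokine UMIs per 10,000 in WT and 45.3 in KO, while the highest 5% of cells began at 313 in WT and 219.7 in KO. The lower sum of the list thus lies in the cells with most chemokine RNA. Cxcl1 and Cxcl3 were also found in fewer cells, 10.8% of WT and 2.51% of KO members for Cxcl1 and 18.4% and 8.04% for Cxcl3.

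The list's sign differed between classes. The median log2 ratio of chemokines was 0.56 in interferon-signature cells (7 of 15 genes higher, 0 lower, against 5.82% and 3.59% of all genes). It was 0.08 in MHC class II high cells (6 of 19 higher and 0 lower, against 3.06% and 1.59%). In C1q-high cells it was 0.05 (7 of 20 higher and 2 lower, against 4.6% and 1.98%). Non-classical cells had 0.07 (2 of 10 higher and 0 lower, against 4.45% and 3.02%). In free RNA it was 0.39 (5 of 19 higher and 1 lower, against 2.15% and 0.869%). The difference between the classes was not tested.

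**Figure D4:**
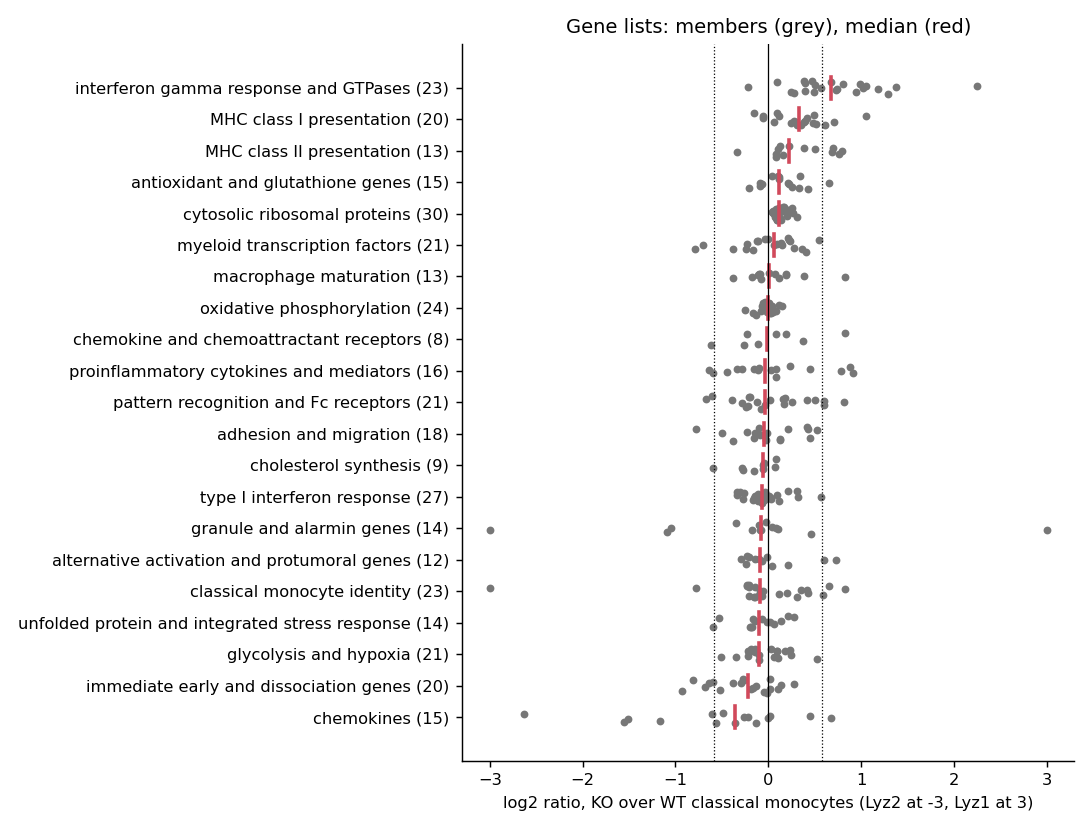
Log2 ratio of KO over WT classical monocytes (x axis) for the tested genes of the 21 pathway lists with at least 5 of them, ordered by median (red bar, number of genes in brackets), with dotted lines at 1.5-fold and a solid line at the median of all genes tested. The interferon gamma list has the highest median (0.67) and chemokines the lowest (-0.36), and Lyz2 and Lyz1 are drawn at the edges.

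Inflammatory mediators split. Il1b, the cytokine interleukin 1 beta, had 4223 UMIs (2627 CPM) in WT and 2523 UMIs (1690 CPM) in KO, and Ptgs2, the prostaglandin synthase COX-2, stood at 320.3 and 209.7 CPM. Acod1, which makes itaconate, was higher in KO at 95.2 and 184 CPM, as were the inflammatory caspases Casp1 (45.4 and 87.8 CPM) and Casp4 (168 and 293 CPM). Of 16 tested genes of the list 3 were higher and 2 lower, against 3.06% and 2.84% of all genes tested, with a median log2 ratio of -0.04. Cd14, the coreceptor for lipopolysaccharide, stood at 1527 and 959 CPM and the receptor Clec4n (dectin-2) at 159 and 103 CPM. The fungal sugar receptor Clec7a (dectin-1) stood at 334 and 511 CPM, Tlr7 at 31.1 and 49.6 CPM and Ly96, the TLR4 cofactor MD-2, at 26.8 and 50.9 CPM. Thbs1, the matrix protein thrombospondin 1, had 5262 UMIs (3273 CPM) in WT and 2852 UMIs (1911 CPM) in KO.

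Of 20 tested immediate early and dissociation genes 5 were lower and 0 higher (median log2 ratio -0.22, and 0.09 when the rule was applied to thinned cells). Over all genes tested 2.84% were lower and 3.06% higher. The heat shock genes Hspa1b (2802 and 1469 CPM), Hspa1a (3967 and 2474 CPM), Hsph1 (277 and 156 CPM) and Dnajb1 (233 and 148 CPM) made up most of the 5 lower genes. Hspa1a and Hspa1b are near-identical copies. In T cells 6 of 19 genes of this list were lower, against 0.874% of all genes there, with a median log2 ratio of -0.22. In C1q-high cells 10 of 19 were lower (against 1.98%, median -0.67), and in free RNA 5 of 19 (against 0.869%, median -0.22). Of 14 tested genes of the unfolded protein and integrated stress response 1 was lower in the members and 0 higher. This is near the shares of all genes tested (2.84% lower and 3.06% higher), and the median was -0.10. The nuclear receptors Nr4a1 (452 and 259.9 CPM) and Nr4a3 (62.2 and 36.2 CPM) were lower in the members as well.

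Among the other large differences, Slamf8, a myeloid surface receptor, stood at 34.2 CPM in WT and 111 CPM in KO, 3.23-fold higher (2.37 to 4.47). Calhm6, a channel gene induced by interferon gamma, stood at 30.5 and 109 CPM, and Gbp6 at 14.3 and 61.0 CPM. The uridine phosphorylase gene Upp1 stood at 64.1 and 152 CPM, the MYC partner Max at 57.8 and 129.97 CPM and the repressor Rest at 41.7 and 93.1 CPM. Gpr183, a receptor for oxysterols that guides migration, was lower, at 128 and 43.5 CPM (2.94-fold, 2.22 to 3.95). The adaptor Gab1 stood at 182 and 82.4 CPM, Mpp7 at 254 and 124 CPM and Trem3 at 69.0 and 27.5 CPM. These genes were each found in at least 13 cells of each matrix.

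Some of the largest ratios rested on few cells. Gzma, a killer cell protease, stood at 43.5 CPM in WT and 145 CPM in KO, and 3 of 199 KO cells held 78.3% of its KO UMIs. Gzmb stood at 17.4 and 94.5 CPM, with 73.8% of its KO UMIs in 3 cells. Of the neutrophil genes, S100a9 stood at 71.5 and 30.8 CPM, with 84.3% of its WT UMIs in 3 cells, and S100a8 at 63.4 and 28.1 CPM. G0s2 stood at 376 and 48.2 CPM, in 41 WT and 24 KO cells, with 45.2% of its WT UMIs in 3 cells. Cells with at least 3 UMIs of S100a8 and S100a9 or of Gzma and Gzmb were left out as an alternative chosen after seeing the data (212 WT and 192 KO cells remained). Then the log2 ratio of Gzma turned from 1.63 to -0.25, that of S100a9 from -1.10 to 0.39 and that of S100a8 from -1.05 to 0.29. Of the 20 largest falls, 18 stayed past 1.5-fold in these cells, G0s2 among them. In the same cells 133 genes were higher and 115 lower, of which 114 and 97 were among the 127 and 118, and the interferon gamma list had 14 genes higher and a median of 0.76.

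Mid1, a ubiquitin ligase gene of the X chromosome, stood at 80.2 CPM in the WT members and 16.7 CPM in the KO members. Its log2 ratio of -1.97 was matched by -2.53 in T cells (110.1 and 14.98 CPM), -1.94 in C1q-high cells and -1.87 in free RNA. The difference thus lay between the matrices as wholes, and its source was not tested.

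Several lists had median log2 ratios near 0 in the members, with 0 or 1 gene each past 1.5-fold. Over all genes tested 3.06% were higher and 2.84% lower, so such counts do not set these lists apart. None of 21 tested glycolysis and hypoxia genes passed 1.5-fold (median log2 ratio -0.10), nor did any of 24 oxidative phosphorylation genes (-0.00383) or of 30 ribosomal protein genes, which all lay slightly above 0 (0.12). Of 9 cholesterol synthesis genes 1 was lower, Idi1, at 71.5 and 45.6 CPM, and of 13 macrophage maturation genes 1 was higher, the fractalkine receptor Cx3cr1, at 31.1 and 59.0 CPM. The transcription factor Egr2 had 59 UMIs (36.7 CPM) in WT and 39 UMIs (26.1 CPM) in KO, a difference not detectable at this depth (1.40-fold lower, 0.922 to 2.16). Cebpb, a myeloid transcription factor, stood at 4879 and 4357 CPM, 1.12-fold lower (1.08 to 1.16).

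The gene that varied most among the members was the chemokine Cxcl2. After thinning to 2000 UMIs, the variance over the mean (Fano factor, averaged over the matrices) was 32.1 for Cxcl2, against a median of 1.12 over 3050 genes in each matrix. S100a9 (17.3), Cxcl10 (16.1), Ccl2 (13.9) and Ccl4 (13.8) followed. The highest WT cell held 134 thinned UMIs of Cxcl2 and 57.4% of WT cells held at least 1; in KO these were 96 UMIs and 53.3% of cells. Across cells of 1 matrix, which share a library, Cxcl2 went with Cxcl3 (r = 0.601 in 223 WT cells and 0.609 in 199 KO cells) and with Il1b (0.402 and 0.553), the largest of 105 pairs of variable genes by the smaller of the 2 values.

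The macrophage libraries gave the one test with replicates, on another population. Of 12939 genes tested there with edgeR's quasi-likelihood test, 18.8% were called higher and 18.9% lower in KO at an adjusted p below 0.05. As the libraries' animals are not named, a p-value here reflects how much these libraries vary, which may be technical variation only. Ly6c2 measured 71.2, 70.4 and 75.8 CPM in the WT libraries and 196, 197 and 200.3 CPM in the KO libraries, with no overlap, a log2 fold change of 1.45 with an SE of 0.0542 (edgeR adjusted p = 8.645e-35). Ccr2 measured 157, 170.3 and 169 CPM in WT and 245, 233 and 254 CPM in KO (log2 fold change 0.57). Chil3 measured 5.47, 6.91 and 8.64 CPM in WT and 21.0, 27.1 and 20.9 CPM in KO, again without overlap (log2 fold change 1.74, edgeR adjusted p = 6.955e-14). Plac8 rose from 289 ± 7.10 to 384 ± 7.81 CPM (SD, n = 3, log2 fold change 0.41). Chil3 and Ccr2 thus rose in the macrophage libraries and were lower in the KO monocytes, a difference between the populations that was not tested. T cell markers also rose in these libraries (10 of 12 genes). In the single-cell matrices T cells held Ly6c2, as given above, and 35.8% of WT and 39.4% of KO T cells held a Ccr2 UMI. The part of T cells in the rises of Ly6c2 and Ccr2 was not tested. Hp measured 6.96, 8.60 and 12.6 CPM in WT and 8.16, 6.79 and 10.5 CPM in KO, and did not pass (edgeR adjusted p = 0.706). Of the 24 genes of the monocyte identity list, 11 rose and 6 fell. Ogt fell from 56.3 ± 6.24 to 34.7 ± 3.86 CPM. Cebpb fell from 735 ± 33.8 to 151 ± 18.9 CPM (log2 fold change -2.28), and Egr2 from 265 ± 9.54 to 143 ± 10.6 CPM (-0.90). For both genes the WT and KO libraries did not overlap.

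The interferon gamma list was higher there as well. Of its 26 genes tested in the macrophage libraries 24 rose and 0 fell, with a median log2 fold change of 0.43, against 18.8% of all genes called higher. Gbp2 measured 371, 370.2 and 359 CPM in WT and 502, 516 and 498 CPM in KO. Iigp1 measured 97.2, 94.4 and 85.6 CPM in WT and 197, 203 and 201 CPM in KO (log2 fold change 1.11, edgeR adjusted p = 2.840e-29), and Irgm1 183, 184 and 189 CPM in WT and 335, 317 and 331 CPM in KO. For these 3 genes the 3 KO libraries lay above all WT libraries. Cxcl1 fell from 120.3 ± 8.20 to 41.99 ± 2.37 CPM and Cxcl3 from 145 ± 4.61 to 84.4 ± 1.36 CPM (n = 3), and Il1b was lower in all KO libraries (2456 to 2566 CPM) than in all WT libraries (4226 to 4335 CPM). Of the 127 genes higher in the KO monocytes 120 were tested in the macrophages, 54 rose (45.0%) and 18 fell. Of the 118 lower genes 115 were tested, 43 fell (37.4%) and 24 rose. Over all monocyte genes tested in both, 24.6% rose and 29.1% fell. Of the MHC class I genes 16 of 21 rose and 1 fell, of the MHC class II genes 3 of 15 rose and 8 fell, and of the chemokines 3 of 22 rose and 13 fell. The T cell marker list moved as well, with 10 of 12 genes higher in KO, and its part in the interferon gamma result was not tested. The ribosomal genes went the other way than in the monocytes: all 30 ribosomal protein genes fell in the macrophage libraries (median log2 fold change -0.52).

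**Figure D5:**
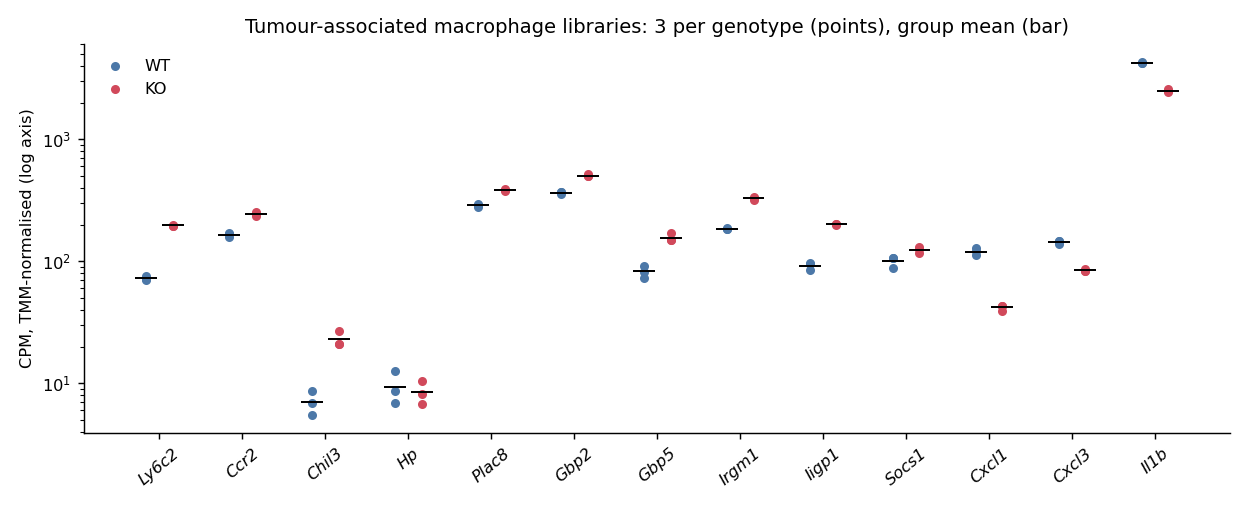
CPM (TMM-normalised, log axis) of 13 genes in the 3 WT (blue) and 3 KO (red) libraries of tumour-associated macrophages, each point 1 library and each bar a group mean. Ly6c2 lies between 70.4 and 75.8 CPM in WT and between 196 and 200.3 CPM in KO, and Hp is the gene whose libraries overlap.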

How the data were processed

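RNA was measured in single CD45-positive cells (1 matrix per genotype) and in 3 WT and 3 KO bulk libraries of tumour-associated macrophages. The single-cell values are UMI counts made by the authors with Cell Ranger 8.0.1, per the file headers. The bulk values are read counts made by the authors with featureCounts 2.0.6 on GENCODE vM10 exons (mm10), per the file headers, with each read of a pair counted, strand ignored and multi-mapped reads left out. For alignment, the tool is not given in the sources used here. Peak lists deposited by the authors carry a score per peak, with no caller named in the labels; only peak positions were used, and an overlap needed 1 base.

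Kept barcodes had at least 1000 UMIs, at least 500 genes and at most 10% mitochondrial UMIs. UMIs were summed over the members of each matrix, as CPM with 5 CPM added before log2. Sums have exact Poisson intervals and shares exact Clopper-Pearson intervals (95%). UMIs of 26 symbols that occur more than once were added up. Scrublet calls were used only as an alternative. Shares of cells with a UMI were taken after thinning each cell to 2000 UMIs. Bulk libraries held 7032540 to 32406170 counts and were fitted with edgeR 4.0.16 (quasi-likelihood test, TMM, Benjamini-Hochberg adjustment over all genes tested). DESeq2 1.42.0 was an alternative. The calculations were tested on simulated data. Scanpy 1.11.5, Python 3.11.15 and R 4.3.3 were used.

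Genes were named by a rule: Ogt, Lyz2, Egr2, Cebpb and the 5 markers, the 20 largest rises and 20 largest falls, up to 4 genes per list by size of the ratio, the 20 genes highest over C1q-high and the 10 over non-classical cells, and the 15 most variable genes. Irf1, B2m, Cd80, Ccrl2, Ptgs2 and Tlr7 were named beside these after their values were seen. Mitochondrial genes, haemoglobins, predicted genes and clones, pseudogenes, immune receptor and immunoglobulin segments, Y-linked genes, Xist and Tsix did not enter the rankings. The rankings are those of rises, falls, ratios over other classes and variable genes. The members and gene lists were chosen with earlier results of these data known. Alternatives varied the Ly6c2 minimum, UMI, mitochondrial and low-count limits, doublets, other cell types, thinning, scaling, weighting of cells, the pseudocount, the bulk tool, the replicate block and each left-out library.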

Additional observations from a re-analysis of the deposited data

Results flagged for a closer look

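The 20 largest rises and 20 largest falls of the classical monocytes were set beside C1q-high cells and T cells (at least 1.5-fold the other way) and the macrophage libraries (called the other way, with no overlap between groups). Of these genes, 8 had opposite signs in the monocytes and in another population. Genes with smaller ratios, such as Chil3, Ccr2, Clec7a and Acod1, also had opposite signs in the monocytes and the macrophage libraries. None of these differences between populations was tested, and there is 1 matrix per genotype. Ccl24 had a log2 ratio of -1.56 in the monocytes and 1.04 in C1q-high cells, and its monocyte value turned to 1.05 with the rule applied to thinned cells. Ccl3 had -1.17 in the monocytes, 0.59 in T cells and a log2 fold change of 0.20 in the macrophage libraries, a call lost without KO library 1 (edgeR adjusted p = 0.105). Dennd5b had -1.02 in the monocytes and 0.71 in C1q-high cells. The granzyme gene Gzma had 1.63 in the monocytes and -1.02 in the macrophage libraries, and its monocyte value turned to -0.25 without the cells that held at least 3 UMIs of S100a8 and S100a9 or of Gzma and Gzmb. Lyz1 had 4.99 in the monocytes and -1.47 in the macrophage libraries. Mid1 had -1.97 in the monocytes and 0.53 in the macrophage libraries (edgeR adjusted p = 0.0234), a call lost without KO library 3 (adjusted p = 0.0819) or WT library 3 (adjusted p = 0.104). Ralgds had 1.04 and -0.41, and Spon1 -1.39 and 0.30, in the same order.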

How the results depend on the processing

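The interferon gamma list kept a positive median under each of the 15 alternatives, from 0.60 to 0.91. The 127 higher and 118 lower genes depended on the limits. They became 78 and 64 with 20 CPM added, 212 and 228 with at least 50 UMIs per gene, and 72 and 49 with at least 200. With the rule applied to thinned cells they were 26 and 15, of which 6 and 5 were among the 127 and 118 (57 and 60 cells, 380 genes tested). Leaving out members with any UMI of other cell types (79 and 61 cells remained) gave 91 and 77, of which 32 and 28 were shared. There Ifitm1 turned to 0.33. In thinned cells the log2 ratio turned to 1.05 for Ccl24, -0.0663 for Cd177, 0.0362 for Dnajb1, 0.17 for Idi1, 0.11 for Nr4a3, 0.17 for S100a8 and 3.77 for S100a9. Other alternatives were chosen after seeing the data. Without cells with granzyme or S100a8 and S100a9 UMIs, Gzma turned to -0.25, S100a8 to 0.29 and S100a9 to 0.39. Without the MHC class II threshold the ratio of shares was 1.11, Idi1 turned to 0.0580 and Saa3 to 0.36. The cause of these changes was not tested.

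In the macrophage libraries the replicate block gave 2338 genes higher and 2353 lower, against 2432 and 2442 without it; same-numbered libraries had correlations of -0.00485, 0.00188 and 0.0112, so the numbers were not taken as pairs. Leaving out each library in turn gave 1981 to 2302 genes higher and 2010 to 2297 lower. DESeq2 gave 2627 and 2510. Single-cell values have no replicate, and counting error alone limits genes such as Ogt and Egr2.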
